A study of Mus musculus with 2 samples.

Results

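The genes described here are 9 members of the AP-1 group of transcription factors: Fos, Fosb, Fosl1 and Fosl2 of the Fos family, Jun, Junb and Jund of the Jun family, and the related factors Batf and Atf3. They are 9 of 27597 genes named on a whole-genome mouse array, and 11 probes carry them. The members were chosen by the knock-out over wild-type ratios of these same arrays, so their ratios are given as a description and no test is attached to them. Every probe whose annotated gene was 1 of the 9 was taken, whatever its level. Jund appears in the scanner annotation under its older name Jund1 and was matched through its RefSeq accession. The other 8 were matched by the symbol itself.

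RNA came from B cells sorted by flow cytometry from the peripheral lymph nodes of wild-type mice (strain C57BL/6J) and of Ccr7 knock-out mice (strain B6.129P2(C)-Ccr7tm1Rfor/J), with no culture after isolation and no treatment named. The knock-out allele is carried in the whole animal, so it is not restricted to B cells, and the ages of the mice are not given in the sources used here. Of the 12 sorted samples, 6 of each genotype, RNA was combined in pools of 3, and each of 2 two-colour arrays received 1 wild-type and 1 knock-out pool. Array 1 had the knock-out pool in the red dye (Cy5) and array 2 had it in the green dye (Cy3), so n = 2 arrays. The spread between them covers pools, dyes and arrays together. The error (SE) of a mean comes from a fit that draws the spread of each gene towards that of all genes.

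AP-1 is a dimer of proteins that carry a basic region for DNA contact and a leucine zipper for pairing. Jun proteins can pair with each other or with a Fos protein, whereas Fos proteins need a partner of another family to bind DNA. Transcription of Fos, Fosb, Jun and Junb is switched on within minutes in lymphocytes that receive a signal through the antigen receptor, a cytokine or stress, and fades again soon after, while Jund is made more steadily. Ccr7 is the chemokine receptor that guides lymphocytes into and within lymph nodes.

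Fos, Jun, Fosb and Junb transcripts had lower ratios in the knock-out pools on both arrays. The mean was 2.5-fold lower for Fos, 1.77-fold lower for Jun, 1.51-fold lower for Fosb and 1.41-fold lower for the brightest Junb probe. Batf was slightly higher on both arrays, and Fosl2 and Jund had opposite signs on the 2 arrays. Atf3, Fosl1 and 1 of the 2 Fosl2 probes were too dim to be compared. In all, 7 members entered the fit over 17686 genes, which used limma with Benjamini-Hochberg adjustment over all genes. No member passed the adjusted threshold of 0.05, which 0.102% of all genes passed (18 genes), 0.0679% as higher and 0.0339% as lower in the knock-out. Of the 7 members, 4 were lower on both arrays, where 30% of all genes were, and 1 was higher on both, where 24.2% of all genes were. Since the members were chosen by this contrast, nothing is read from these shares.

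Parts of the probes that carry these values are printed first, because the Junb signal comes from a pair of overlapping probes and the other genes rest on 1 probe each. Each line gives 30 bases of a longer probe, 5′ to 3′, with the position in the mm8 mouse build as the scanner files give it. The genes' exons and untranslated regions were not annotated on that build here. Capitals mark the 22 bases that both Junb probes share.
Fos, chr12:86366053-86366082, plus strand: ggactttattttccagtagatagaaatcaa
Fosb, chr7:18461680-18461709, minus strand: ctggggatttgagtcagactttctggctgt
Jun, chr4:94541221-94541250, minus strand: tttataatcataggaaagatttagtaatta
Junb probe A_51_P159201, chr8:87867087-87867116, minus strand: acacgcacTTCGTGTCTAAAGTCTATTTTA
Junb probe A_51_P159194, chr8:87867079-87867108, minus strand: TTCGTGTCTAAAGTCTATTTTAagatgtgt

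The starts of the same 4 genes are shown because the 4 were lower together and because the factors that switch Fos and Jun on act just upstream of them. The lines hold the 150 bases before each annotated transcription start, from RefSeq on GRCm38.p6. Capitals mark TGACG, the core of the cyclic AMP response element, the TATAAA box, the CCAAT box and, in Jun, TGACATCA, the AP-1-like element of its promoter.
Fos promoter, chr12:85473740-85473889, plus strand: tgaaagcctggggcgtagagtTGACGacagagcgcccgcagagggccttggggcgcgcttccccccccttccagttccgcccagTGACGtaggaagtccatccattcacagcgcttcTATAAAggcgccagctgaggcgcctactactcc
Fosb promoter, chr7:19310046-19310195, minus strand: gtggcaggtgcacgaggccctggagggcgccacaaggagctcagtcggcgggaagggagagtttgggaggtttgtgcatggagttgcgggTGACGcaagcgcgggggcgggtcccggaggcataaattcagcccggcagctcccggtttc
Jun promoter, chr4:95052223-95052372, minus strand: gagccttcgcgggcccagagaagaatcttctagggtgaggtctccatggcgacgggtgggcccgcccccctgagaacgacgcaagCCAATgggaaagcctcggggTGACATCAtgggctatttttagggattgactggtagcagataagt
Junb promoter, chr8:84978749-84978898, minus strand: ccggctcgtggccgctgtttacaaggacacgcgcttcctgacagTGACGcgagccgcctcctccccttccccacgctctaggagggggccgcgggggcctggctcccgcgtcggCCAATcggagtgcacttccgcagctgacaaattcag

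A search of both strands covered the 250 bases before the start of 8 of the 9 members, and Fosl1 had no entry. TGACG was found before Fos, Fosb, Junb, Batf and Atf3, which is 5 of 8 members, and in 17.8% of 32851 promoter windows of the same length. In Fos it lay 129 to 125 and again 66 to 62 bases before the start, and in Fosb 60 to 56 bases before it. In Junb it lay 106 to 102 bases before the start, with CCAAT at 36 to 32. Jun had CCAAT 65 to 61 and TGACATCA 45 to 38 bases before its start. TGACATCA occurred in 2.93% of windows and was searched for because it is known from the Jun promoter. CCAAT, found before Jun and Junb, occurred in 33.8% of windows, and TATAAA, found only before Fos among the members, in 12.4%. The consensus AP-1 site TGANTCA and the CArG box, the site of serum response factor, were in 0 of the 8 member windows and in 6.75% and 1.47% of all windows. Sites more than 250 bases before a start were outside the search, so these genes may carry either site farther upstream. These matches describe letters in a window and say nothing of binding, and Batf, which was slightly higher on both arrays, also carried TGACG.

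Levels in the following paragraphs are normalized log2 intensities of 1 probe in 1 pool, and ratios are log2 knock-out over wild-type on 1 array. The brightness of a probe depends on its sequence, so levels of different probes are not set against each other. Fewer cells of a kind and less RNA per cell cannot be told apart in such pooled samples. Where both wild-type pools lay apart from both knock-out pools, this is a description. The share of all genes separated in that way is not given here, so nothing is read from it.

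Fos, the founding member of its family, was at 13.32 in the wild-type pool and 11.52 in the knock-out pool of array 1, and at 12.17 and 11.33 on array 2. Both wild-type pools lay above both knock-out pools. Array 1 gave a ratio of -1.80 and array 2 one of -0.84, and their mean was -1.32 (SE 0.22 from the fit, SD 0.68 between arrays, n = 2). Fos ranked 5 of 17686 genes from the lowest mean ratio. The arrays differed mostly through the wild-type side: the wild-type level was 1.15 higher on array 1 than on array 2, and the knock-out level 0.19 higher, where the median gene differed by 0.030 and 0.043. Since the dye was swapped with the pool, a difference between pools and a dye effect cannot be told apart here. The gap between the arrays also depended on the scaling: the Fos ratios were -1.69 and -1.50 after median centring and -1.65 and -1.98 without normalization, lower on both arrays in each case.

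The Fos probe was printed in 10 spots per array, which gives a measure of the technical scatter within an array. Its spot ratios ran from -1.87 to -1.73 on array 1 (SD 0.038) and from -0.90 to -0.77 on array 2 (SD 0.034). Among 245 probes with 10 spots per array, the median spot SD was 0.0682 and 0.0758. The Fos spots scattered less than those of the median replicated probe, and the gap between the arrays was much wider than the scatter of the spots.

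**Figure D1:**
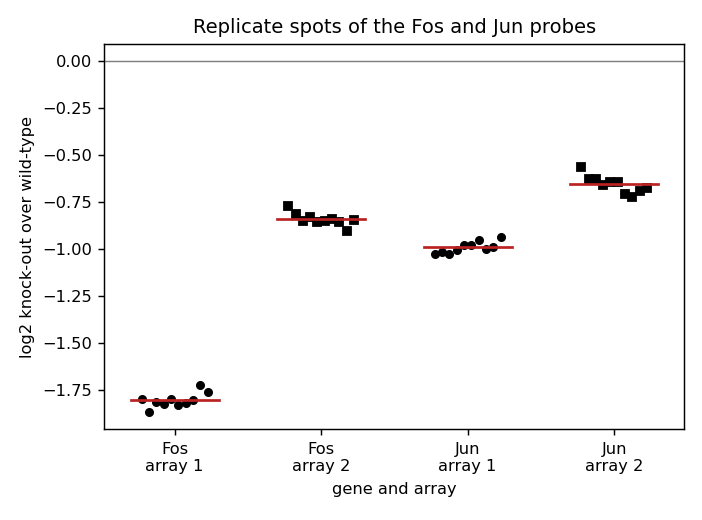
Log2 knock-out over wild-type of each of the 10 spots of the Fos and Jun probes on each array, with a red line at the mean of the spots. All spots of both genes lie below 0, and the Fos spots of array 1 (-1.87 to -1.73) do not meet those of array 2 (-0.90 to -0.77).

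Fosb, a close relative of Fos with a similar early induction, was at 10.04 and 9.28 in the wild-type and knock-out pools of array 1 and at 8.97 and 8.53 on array 2. Within each array the wild-type pool was higher, but the groups overlapped, since the knock-out pool of array 1 lay above the wild-type pool of array 2. The ratios were -0.76 and -0.44, with a mean of -0.60 (SE 0.14, n = 2, rank 200 from the lowest). As with Fos, the level was higher on array 1 than on array 2, by 1.07 in the wild-type and by 0.75 in the knock-out pools.

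Fosl2, a Fos relative that is induced later and lasts longer, had 1 probe just above background, at 6.81 and 7.0 in the wild-type and knock-out pools of array 1 and at 6.75 in both pools of array 2. Its ratios were 0.19 and -0.00, with a mean of 0.10 (SE 0.13, n = 2), and the pools could not be separated. The other Fosl2 probe (chr5:32433832-32433891 on mm8) was not well above background in any channel, with levels from 6.04 to 6.14. Fosl1, whose product lacks the strong activation domain of Fos, was above background on array 1 only, where the wild-type pool was at 6.65 and the knock-out pool at 6.53. On array 2 its levels of 6.41 and 6.46 were not well above background. Fosl1 was left out of the fit for that reason, and at such levels the offset used in background correction pulls ratios towards 0.

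**Figure D2:**
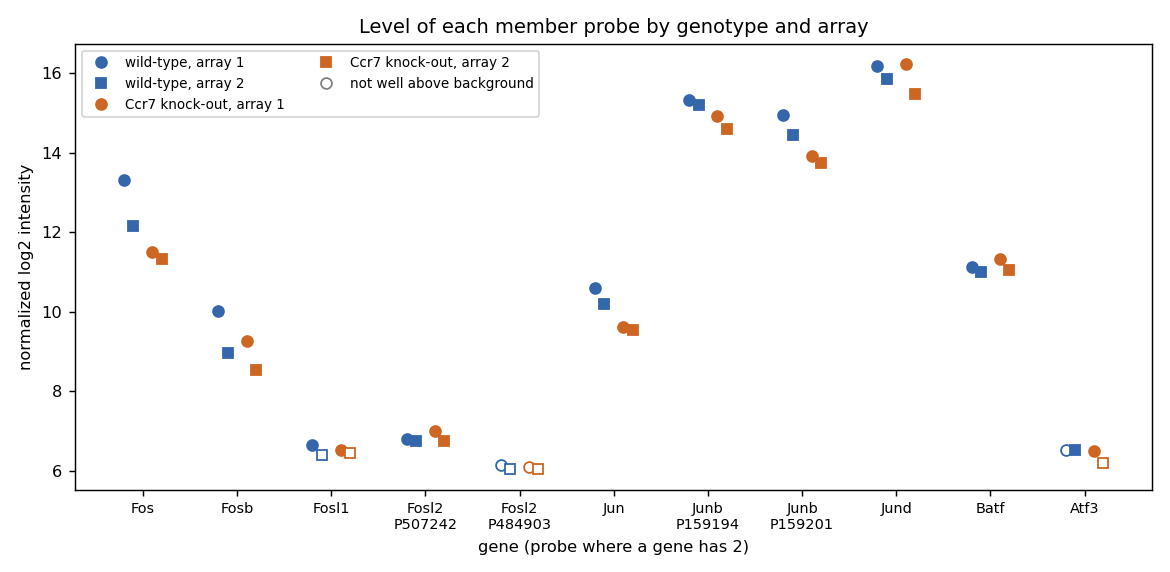
Normalized log2 intensity of the 11 member probes in the 4 pools, with wild-type in blue, knock-out in orange, circles for array 1, squares for array 2 and open symbols where a spot was not well above background. The blue symbols of Fos, Jun and both Junb probes lie above all of their orange ones, while those of Fosb overlap. Those of Atf3, a dim probe that was not compared, are separated in the same way. The share of all genes separated in this way is not given.

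Jun, the partner with which Fos forms the classical AP-1 dimer, was at 10.60 in the wild-type and 9.61 in the knock-out pool of array 1, and at 10.21 and 9.56 on array 2. Both wild-type pools were above both knock-out pools. Array 1 gave a ratio of -0.99 and array 2 one of -0.66, and their mean was -0.82 (SE 0.14, n = 2, rank 55 from the lowest). The probe was also printed in 10 spots per array, with spot ratios from -1.03 to -0.93 (SD 0.030) and from -0.72 to -0.56 (SD 0.046). The spread between the arrays was again wider than the scatter of the spots, and it again lay on the wild-type side, where array 1 was higher than array 2 by 0.39 against 0.056 in the knock-out pools. After median centring the order of the arrays turned, with ratios of -0.95 and -1.17.

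Junb, which restrains Jun in some settings and drives cytokine genes in lymphocytes, had the pair of overlapping probes printed above. The brighter probe, A_51_P159194, was at 15.34 and 14.93 in the wild-type and knock-out pools of array 1 and at 15.21 and 14.61 on array 2, with a mean ratio of -0.50 (SE 0.13, n = 2, rank 371 from the lowest). The other, A_51_P159201, was at 14.95 and 13.91 on array 1 and at 14.45 and 13.74 on array 2, with ratios of -1.04 and -0.71 and a mean of -0.88, or 1.83-fold lower. For each probe both wild-type pools lay above both knock-out pools, but the probes differed in size, and their order of the arrays was opposite: -0.40 on array 1 and -0.60 on array 2 for the brighter one. Both were bright enough that the scanner program took their values from a second scan at low gain and scaled them up, in both channels of array 1 and in the wild-type channel of array 2. On array 2 the 2 channels of a Junb spot therefore come from different scans, and the part of this in the Junb ratios was not tested. Without normalization the brighter probe had a ratio of 0.01 on array 1, so that its direction there depended on the scaling, and of -1.98 on array 2.

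Jund, the Jun protein made most steadily in resting cells, was at 16.19 and 16.23 in the wild-type and knock-out pools of array 1 and at 15.87 and 15.49 on array 2. Its ratios of 0.04 and -0.38 differed in sign, the mean was -0.17 (SE 0.15, n = 2), and the groups overlapped. The scaling moved it widely: its ratios were -0.44 and -0.22 with the scanner program's own log ratio, 0.52 and -1.35 after median centring, and 0.56 and -1.84 without normalization. All 4 of its values came from the low-gain scan. No Jund or Junb spot was saturated.

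Batf, a small factor without an activation domain that pairs with Jun proteins and acts with Irf4 and Irf8 in lymphocytes, was at 11.12 and 11.33 in the wild-type and knock-out pools of array 1 and at 11.01 and 11.05 on array 2. The ratios of 0.21 and 0.04 were both above 0, with a mean of 0.12 (SE 0.13, n = 2), and the groups overlapped. With other scaling the sign of Batf changed: the mean was -0.16 after median centring and -0.38 without normalization, where the median of all genes moved to -0.17 and -0.39. Relative to the median gene it was 0.02 higher in both. Atf3, a stress-induced factor that mostly represses as a homodimer, was above background in the knock-out pool of array 1 (6.49) and the wild-type pool of array 2 (6.52), which is the red channel each time. The green channel was not well above background on either array, and Atf3 was not compared.

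**Figure D3:**
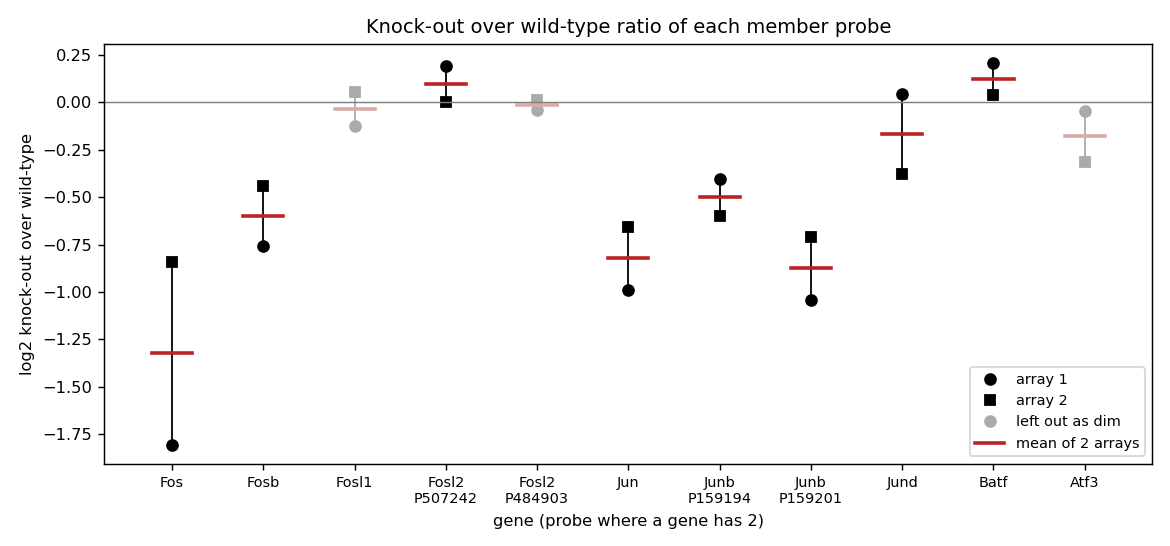
Log2 knock-out over wild-type of the 11 member probes, with a circle for array 1, a square for array 2, a red bar at the mean of the 2 arrays and grey for the 3 probes left out as dim. Fos has the widest gap between arrays (-1.80 and -0.84), and the Fos, Fosb, Jun and both Junb probes are below 0 on both.

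The median of the mean ratios was -0.50 over the 7 members tested and -0.01 over all genes. The plot of both arrays against each other shows how far the 4 lower members lay from the bulk of genes, in the order Fos, Jun, Fosb and Junb, by their ranks of 5, 55, 200 and 371.

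**Figure D4:**
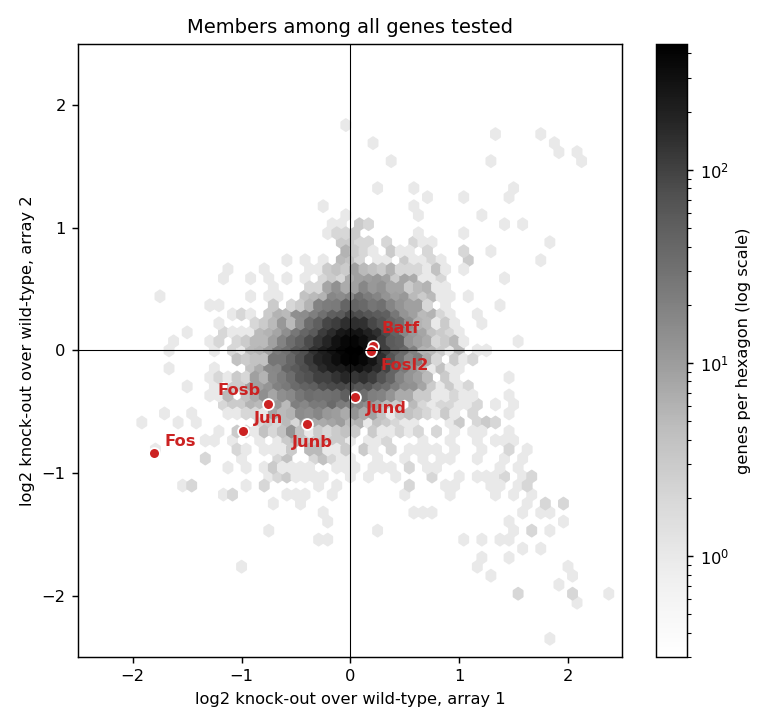
Log2 knock-out over wild-type on array 1 (horizontal) and array 2 (vertical), with grey hexagons for the number of all 17686 genes tested and red points for the 7 members tested; 3 genes lie outside the axes. Fos, Jun, Fosb and Junb lie in the lower left, and Batf, Fosl2 and Jund lie near the dense centre.

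The targeted gene was measured on the same arrays. Ccr7 was at 12.55 and 11.44 in the wild-type and knock-out pools of array 1 and at 12.40 and 11.66 on array 2. The knock-out pools were lower on both, with ratios of -1.11 and -0.74 and a mean of -0.93 (SE 0.15, n = 2, 1.90-fold lower), which did not pass (limma, Benjamini-Hochberg adjusted p = 0.143). The probe (chr11:98960289-98960314 on mm8) may lie inside or outside the part that was deleted, which the sources used here do not give, so it is a limited check of the labels. Between 58.4% and 68.8% of spots were well above background per pool, out of 43379 spots, and the number of arrays limits the precision.

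The ratio pattern over the 2 arrays that lay nearest to that of Fos, by Euclidean distance and with members left out, belonged to Plk2, at a distance of 0.261 with ratios of -1.93 and -0.61. Plk2 is a kinase induced early after mitogenic signals. Next came Dusp1 (distance 0.298), a phosphatase that switches off MAP kinases, the transcript AK048349 (0.350), the transcription factor Klf4 (0.403) and the heat shock gene Hspa1a (0.406). With only 2 arrays such a distance is a description of 2 values per gene.

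Early response genes and genes often named with them were examined as a list of 32, and not all of them are induced as Fos is. Of its 29 tested genes, 15 were lower and 2 higher on both arrays, with a median of -0.31 (-0.48 on array 1 and -0.21 on array 2). Of all genes tested, 30% were lower and 24.2% higher on both arrays. The list was drawn up with earlier results known, so nothing is read from the difference. Klf4, a transcription factor that holds lymphocytes in quiescence, fell 2.53-fold (mean -1.34, SE 0.15, n = 2, lower on 2 of 2 arrays, limma adjusted p = 0.0494). It was the one gene of the list that passed the test; Dusp1, at -1.62 and -0.61, had an adjusted p of 0.229 from the same limma fit. Rgs1 and Rgs2, regulators of G protein signals, had mean ratios of -1.09 and -1.06, and Ppp1r15a, which acts on the translation factor eIF2 after stress, had -1.0. None of these 3 passed in limma (adjusted p 0.101, 0.0650 and 0.207); they were picked as the next in size after their values were seen. Some genes went the other way, such as Cd69, an early activation marker, at 0.31 and 0.72. Low-gain values stood behind 10 of the 29 genes. Without spots of that kind 23 genes of the list remained, of which 14 were lower and 2 higher on both arrays, with a median of -0.38, and 6 passed as lower in limma. In that setting 83 of 16751 genes passed as lower, against 6 of 17686 in the main fit. Among them was 1 gene each of the AP-1 target, AP-1 cofactor, T cell and myeloid lists described below.

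Among 35 tested genes of the other bZIP families (of 40 listed), 10 were higher and 6 lower on both arrays, and the median was 0.03. The shares over all genes were 24.2% higher and 30% lower. Nfil3, a repressor that shares the bZIP fold and is known from cytokine signalling in lymphocytes, rose 2.35-fold in the knock-out pools, with ratios of 1.42 and 1.06 (mean 1.24, SE 0.14, n = 2, limma adjusted p = 0.0494). No other gene of this list passed. The calls of both Klf4 and Nfil3 depended on the processing: each was past the threshold in 5 of 12 other settings of filter, normalization and fit, and the mean ratio stayed between -1.81 and -1.33 for Klf4 and between 0.89 and 1.67 for Nfil3.

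The MAP kinase routes that switch AP-1 on showed no call among 27 tested genes of 28, with 6 higher and 8 lower on both arrays and a median of -0.01. For this and the other lists of this paragraph, the shares over all genes were again 24.2% higher and 30% lower. The largest ratios of one sign were -0.58 for Rps6ka5, a kinase that modifies histones and Creb at early genes, and 0.46 for Map3k5, a stress-activated kinase (limma adjusted p 0.242 and 0.355). Factors that act on the Fos and Jun promoters gave 0 calls among 15 of 16, with 2 higher and 5 lower on both arrays and a median of -0.08. In that list Ets2 was at -0.59 and Egr1, itself an early gene, at -0.55 (limma adjusted p 0.275 for each). Cofactors and genes of AP-1 turnover gave 0 calls among 16, with 2 higher and 5 lower and a median of -0.07. There Fbxw7, a ubiquitin ligase subunit that marks Jun for degradation, was at -0.33, and Zfp36, which binds and destabilizes short-lived messages, at -0.24 (limma adjusted p 0.492 and 0.690). Only 0.102% of all genes passed, so 0 calls in lists of this size say little about their genes.

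Textbook AP-1 target genes gave 0 calls among 20 tested of 28, with 5 higher and 10 lower on both arrays and a median of -0.11. Over all genes 0.102% were called, 24.2% were higher and 30% were lower on both arrays. Ccl3, a chemokine made by activated B cells, was at -1.33 and -0.89 (mean -1.11, SE 0.15, n = 2), and did not pass (limma adjusted p = 0.0977). Cd69, which also stands in this list, had a mean of 0.52 (limma adjusted p = 0.349). Over all genes 1612 had an unadjusted p under 0.05 in limma, against the 18 that passed after adjustment.

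**Figure D5:**
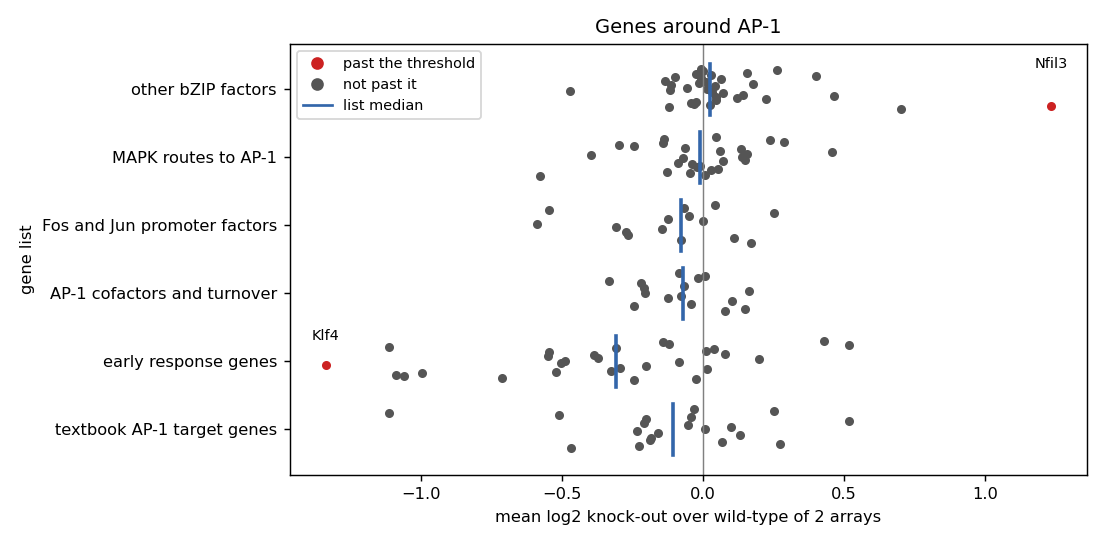
Mean log2 knock-out over wild-type of 2 arrays for each tested gene of 6 lists around AP-1, with a blue line at each list median and red points for genes past the threshold. The early response list has the lowest median (-0.31), and Klf4 and Nfil3 are the only red points.

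All 8 B cell markers reported, Cd79a and Pax5 among them, were well above background in all 4 pools, with a median ratio of 0.18. On both arrays 2 were higher and 1 was lower. For this and the other marker lists, the shares over all genes were 24.2% higher and 30% lower. The lower one was Pax5, the factor that maintains B cell identity, at -0.79 and -0.86 (mean -0.82, SE 0.13, n = 2, 1.77-fold lower), which did not pass (limma adjusted p = 0.142). The mean Pax5 ratio was as large as that of Jun, but it rested at least in part on low-gain values, and that of Jun did not. Without low-gain spots 4 B cell markers remained, and 0 of them were lower on both arrays. The markers' summed intensity was 279656 and 496820 in the wild-type pools of arrays 1 and 2 and 496883 and 316108 in the knock-out pools, so the red channel was higher on each array; 7 of the 8 came from low-gain scans. Of 11 T cell markers, 10 were tested (median -0.01), with sums of 13383 and 11045 in wild-type and 15200 and 11337 in knock-out pools. On both arrays 5 of the 10 were lower and 2 higher. Thy1, a surface protein of T cells, was at -0.93 and -0.63, and Cd3d, a chain of the T cell receptor complex, at -0.56 and -0.63. The interleukin receptor chain Il7r was at -0.48 and -0.51, but it was well above background in the wild-type pools only. The coreceptor chain Cd8a was at -0.52 and -0.25. These 4 had the sign of Fos and Jun on both arrays, and so did Cd4, at -0.004 and -0.05. Cd3e and Cd3g, chains of the same complex as Cd3d, and the kinase Zap70 had opposite signs on the 2 arrays. Their means were 0.03, 0.01 and 0.11. The 2 markers higher on both arrays were Cd8b1, the other Cd8 chain, at 0.25 and 0.10, and the kinase Lck, at 0.22 and 0.10. None of Thy1, Cd3d, Il7r and Cd8a passed (limma adjusted p from 0.164 to 0.449). When low-gain spots were left out, 1 T cell marker and 1 myeloid marker passed as lower. Pax5 was picked, and the T cell markers were grouped, after their values were seen. Of 9 myeloid markers, 8 were tested (median 0.11), with sums of 79189 and 83067 in wild-type and 108672 and 89120 in knock-out pools, and S100a8 was not; 3 were higher and 1 was lower on both arrays. For dendritic cells, 3 of 5 markers were tested, with sums from 437 to 470 over the 4 pools, and Clec9a and Siglech were not. The 3 of 5 NK cell markers tested summed to between 499 and 681, and Ncr1 and Gzma were not tested. Stroma and endothelium had 5 of 8 markers tested, with sums between 2416 and 2851 and without Pdgfra, Pdgfrb and Pdpn. Only 1 of 4 erythroid markers was tested, with a ratio of 0.48. With the main settings no marker of these lists passed the threshold. Since only 0.102% of all genes did, this says little about the markers. The part of other cells in the ratios of Fos, Jun, Fosb and Junb was not tested.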

How the data were processed

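The members and gene lists were chosen with earlier results of these data known. The deposited intensity of each spot was read by the authors with Agilent Feature Extraction 9.5.3.1, per the submitters' processing notes. Beside it stands that program's log10 ratio (Cy5 over Cy3), made after background subtraction and dye normalization, per the file headers. The deposited value table holds log2 ratios, which equalled the program's ratio, with its sign set to knock-out against wild-type, at 42512 and 42515 of 43379 spots (tolerance 0.001), with column medians of 0.

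In limma 3.58.1 (R 4.3.3), normexp (offset 50) was used for the background, followed by loess within arrays (span 0.3, 4 iterations, 1639 control spots at weight 0). Spots with outlier flags were left out and spots of a probe averaged. A probe was kept where 1 genotype was well above background on both arrays, and each gene was represented by its brightest probe. Of 41174 probes, 24375 were named by RefSeq accession, 6301 by current symbol and 2426 by synonym. The remaining 8072 kept the name in the file. Ratios were fitted over all genes with lmFit and eBayes, coded for the dye swap, with Benjamini-Hochberg adjustment and a threshold of 0.05.

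Both arrays lay on one slide, and the red channel of each array was a different genotype. The fit was tested on simulated data, in which the planted changes were larger than the mean ratios of the genes named here. It recovered such changed genes but made more false calls than its nominal rate, so adjusted p-values near the threshold can be too small. Whether the fit recovers changes of the size reported here was not tested. Only 1 residual degree of freedom stands behind each gene, and the prior degrees of freedom were 6.18. The SE and the p-values therefore rest mostly on a spread shared over all genes, and less on that of the gene itself. The spread between the 2 arrays holds pool, dye and array together. From each pathway list the text names the genes past the threshold, up to 4, or otherwise the 2 largest of one sign on both arrays, besides all members, Ccr7 and the 5 genes nearest to Fos; others are marked where they stand. Ccr7, the targeted gene, was taken out of the dendritic cell markers, and 1 B cell marker of the list is not reported here. Alternatives were another or no background correction and normalization, other filters, the scanner's ratios, the value table, the mean of probes, low-gain spots left out, another prior and each array alone.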

Additional observations from a re-analysis of the deposited data

How the results depend on the processing

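The number of genes past the threshold in limma, 18 of 17686, depended on the processing, and the cause was not tested. It was 0 without background subtraction, with the scanner program's log ratio, without within-array normalization, with the deposited value table and with probes of a gene averaged, where 1567, 1481, 89, 1550 and 1576 genes had an unadjusted p under 0.05. It was 4 after median centring, 9 where both channels had to be above background, 127 without low-gain spots and 73 with an intensity trend and a robust prior. It was 18 to 25 with no filter, flagged spots kept or an offset of 10. Where 7 members were tested, between 3 and 5 were lower on both arrays in these settings, against 4 in the main setting. Without low-gain spots 3 of 5 members were lower, and with no filter 5 of 9. With array 1 left out 6 were lower on the remaining array, and with array 2 left out 4. The mean ratio of Fos ran from -1.82 to -1.32, that of Jun from -1.28 to -0.82, that of Fosb from -0.98 to -0.59 and that of Junb from -0.99 to -0.50, all below 0. Fosl2 ran from -0.02 to 0.20, Jund from -0.64 to -0.16 and Batf from -0.38 to 0.14. The early response median, set against that of all genes, ran from -0.40 to -0.27, with 0 to 6 genes of the list called lower. Each ratio is already paired within its array, so no further pairing was fitted.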

Other observations

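Fos and Batf lie on the same stretch of chromosome 12, together with Jdp2, a bZIP factor that pairs with Jun and represses AP-1 sites. On mm8 the Jdp2 probe lay 163 kb and the Batf probe 232 kb from the Fos probe. Jdp2 was higher in the knock-out pools on both arrays, with ratios of 0.61 and 0.32 and a mean of 0.46 (SE 0.14, n = 2), which did not pass (limma, Benjamini-Hochberg adjusted p = 0.355). Its mean stayed between 0.17 and 0.67 in 12 other settings, none of which brought it past the threshold. Of 16 genes tested within 500 kb of the Fos probe, Fos had the lowest mean (-1.32) and Jdp2 the highest, and the other 14 lay between -0.23 (Mlh3) and 0.22 (Erg28). This window was chosen after the values were seen, and no test was made of it.

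Xbp1, a bZIP factor of the plasma cell programme, was also higher on both arrays, at 0.55 and 0.85, and did not pass (limma adjusted p = 0.207). It was picked as the next in size after Nfil3 among the other bZIP factors.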
